A study of Mus musculus with 3 samples.

Results

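Chondrocytes were sought among the cells of ectopic tissue masses forming around Matrigel implants in mice, and 273 cells of 21503 that passed the quality limits were chosen. A barcode was chosen when it held 200 to 6000 genes, at most 5% mitochondrial UMIs (unique molecular identifiers, each counting 1 captured RNA molecule), at least 1% of its UMIs from the stromal genes Col1a1, Col1a2, Col3a1, Dcn and Lum, no UMI of the macrophage gene C1qa, and at least 2 UMIs each of Acan and Col2a1. The members were therefore selected on the measured values of those 8 genes, which are described below without any test and support nothing. All 273 came from the Vehicle library, and none from the Matrigel-only or Palo library.

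The study implanted CD-1 female mice, aged 6 to 8 weeks, subcutaneously to follow heterotopic ossification, the formation of skeletal tissue at an ectopic site. Vehicle and Palo mice carried Matrigel mixed with rhBMP2, a recombinant bone morphogenetic protein, and received by mouth either corn oil with DMSO or palovarotene at 4 mg/kg, an agonist of retinoic acid receptor gamma. Matrigel-only mice carried the gel without rhBMP2 and were, by the labels, given nothing by mouth, so that group differs from the other 2 in both the protein and the dosing. Masses were harvested on day 5, dissociated with dispase and loaded on the 10x Genomics droplet system, giving 1 library per group. The labels do not tie a cell to a mouse, and an animal-to-animal spread could therefore not be measured.

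Chondrocytes build cartilage by secreting fibrils of type II collagen, with types IX and XI on and within them, and large sulphated proteoglycans such as aggrecan held on hyaluronan. The transcription factor SOX9, with SOX5 and SOX6, drives this programme, and in endochondral bone formation the cells later enlarge, switch on type X collagen and Indian hedgehog and are replaced by bone. BMP2 implants follow that cartilage-first route, and retinoid receptor agonists are known to oppose it.

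The libraries held 44252421 UMIs in 9249 barcodes (Matrigel-only), 46317250 in 6065 (Vehicle) and 46901673 in 7905 (Palo). After the limits on genes and mitochondrial UMIs, 8728, 5478 and 7297 cells remained, of which 1767, 1205 and 980 met the stromal part of the rule. Chondrocytes made up 22.7% of the Vehicle stromal cells (273 of 1205, exact binomial 95% interval 20.3% to 25.1%) and 4.98% of all passing Vehicle cells (4.42% to 5.59%). In the Matrigel-only library, 0 of 1767 stromal cells met the rule, which allows a share of up to 0.170% (3 counts of the total), and in the Palo library 0 of 980 did, which allows up to 0.306%. The exact binomial upper bounds for these shares were 0.209% and 0.376%. The Vehicle interval lay above both kinds of limit, but with 1 library per group no test between conditions was possible. These intervals and limits cover counting error only. Fewer chondrocytes in a mass and fewer freed by dissociation cannot be told apart.

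Barcodes shared between libraries were few, with 19 between Matrigel-only and Vehicle, 21 between Matrigel-only and Palo and 11 between Vehicle and Palo, and no chondrocyte carried one. The 2323 Vehicle macrophages, which should lack cartilage transcripts, held 235 UMIs of Col2a1 (24.0 UMIs per 1000000 UMIs of the class, CPM) and 152 of Acan (15.5 CPM), and 1 of them (0.0430%) reached 2 UMIs of each gene. That barcode alone held 68 of the Col2a1 and 52 of the Acan UMIs. The other 2322 macrophages gave the background for the rule genes, at 17.1 CPM of Col2a1 and 10.2 CPM of Acan. Col2a1 made up 62.5% of the UMIs of both genes in these 2322 (56.4% to 68.4%) and 66.2% in the chondrocytes (65.8% to 66.6%). Macrophages were shallower than chondrocytes (medians of 3604 and 18046 UMIs), so the share of 0.0430% does not carry over to deeper stromal cells. How many members near the limit of 2 UMIs hold background RNA was not tested. No doublet caller was run, and the upper limit of 6000 genes and the absence of C1qa were the only guards against droplets with 2 cells.

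**Figure D1:**
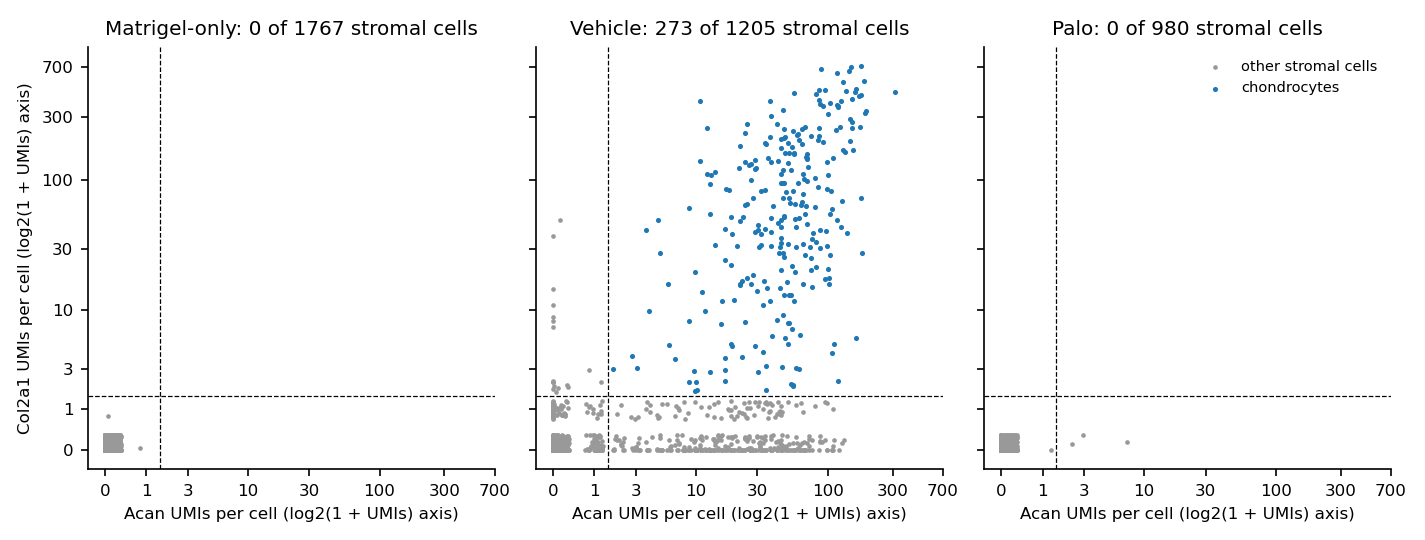
UMIs of Acan (x axis) and Col2a1 (y axis) per stromal cell on log2(1 + UMIs) axes with a small random offset, in the Matrigel-only, Vehicle and Palo libraries; blue points are the 273 chondrocytes, grey points all other stromal cells, and dashed lines mark the limit of 2 UMIs. The Vehicle panel holds every blue point. The 1767 Matrigel-only and 980 Palo stromal cells have at most 1 UMI of either gene, apart from 3 Palo cells with 2 to 7 UMIs of Acan and none of Col2a1.

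The label was checked on markers that the rule did not use. Col9a1 (a chain of type IX collagen), Col11a2 (a chain of type XI collagen) and Comp (cartilage oligomeric matrix protein, which bridges collagen fibrils) were all detected. A Col9a1 UMI was present in 238 of the 273 cells (87.2%), a Col11a2 UMI in 251 (91.9%) and a Comp UMI in 231 (84.6%). After thinning every cell to 2800 UMIs, which 272 of the 273 chondrocytes and 1484 of the 2323 macrophages reached (median depths 18046 and 3604 UMIs before thinning), the Col9a1 share was 67.5% in the chondrocytes and 0.876% in the macrophages. Sox9 was detected in 270 cells (98.9%). These markers were not confined to the members. Vehicle stromal cells with at least 2 UMIs of Acan and none of Col2a1 held 114 CPM of Col9a1, 62.5 of Col11a2 and 186 of Comp. The chondrocytes held 827, 581 and 1051 CPM. The 5 marker genes lie at chr7:79053483-79115099 (Acan), chr15:97975602-98004695 (Col2a1), chr1:24177610-24252684 (Col9a1), chr17:34039437-34066685 (Col11a2) and chr8:70373558-70382066 (Comp) in the GENCODE annotation of GRCm38.

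The chondrocytes were deep cells, with a median of 18046 UMIs (1202 to 37536) and 4331 genes (666 to 5995) and a median of 2.44% mitochondrial UMIs. Acan ran from 2 to 315 UMIs per cell with a median of 51, and Col2a1 from 2 to 712 with a median of 56. Together they made up 0.983% of all chondrocyte UMIs. The quartiles were 29 and 83 UMIs for Acan and 18 and 169 for Col2a1, so that Col2a1 varied more widely among the members. At the limit of the rule, the 11 cells whose lower count was 2 held 1161 CPM of Sox9, 133 of Col9a1 and 154 of Col11a2. Just outside it, the 90 cells whose lower count was 1 held 435, 86.0 and 50.9 CPM. The boundary was not sharp for every gene, since 200 cells with at least 10 UMIs of Acan and none of Col2a1 held 560, 137 and 71.4 CPM, and their Col9a1 was close to that of the 11 members at the limit. The 223 members with at least 10 UMIs of each gene held 964 CPM of Col9a1. The 17 cells with 2 or more UMIs of Col2a1 and none of Acan held 14.4 CPM of Col9a1 and 219 of Sox9, against 4.36 and 220 CPM in the 440 Vehicle stromal cells with neither gene.

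Those 440 cells, with no UMI of Acan or Col2a1, were the comparison for all other genes. They had a median of 15952.5 UMIs and 4161.5 genes, and 36.5% of Vehicle stromal cells were of this kind. UMIs were summed over the cells of each class (5048457 in the chondrocytes and 6886635 in the comparison) and turned into CPM, and a log2 ratio was taken after adding 5 CPM to each side, which makes the ratio of low genes smaller than the ratio of their counts. Of 10048 genes that averaged at least 5 CPM over both classes, 307 were at least 2-fold higher in the chondrocytes (3.06%) and 596 at least 2-fold lower (5.93%), with a median log2 ratio of -0.04. Under the alternative settings described below, the 2-fold counts ran from 165 to 392 higher and from 254 to 776 lower. At 8-fold or more, 35 genes were higher and 38 lower. Both classes came from 1 library and were cut from it by 2 of its genes, so these counts describe the classes and carry no p-value. CPM values are compared between classes for the same gene and not between genes.

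**Figure D2:**
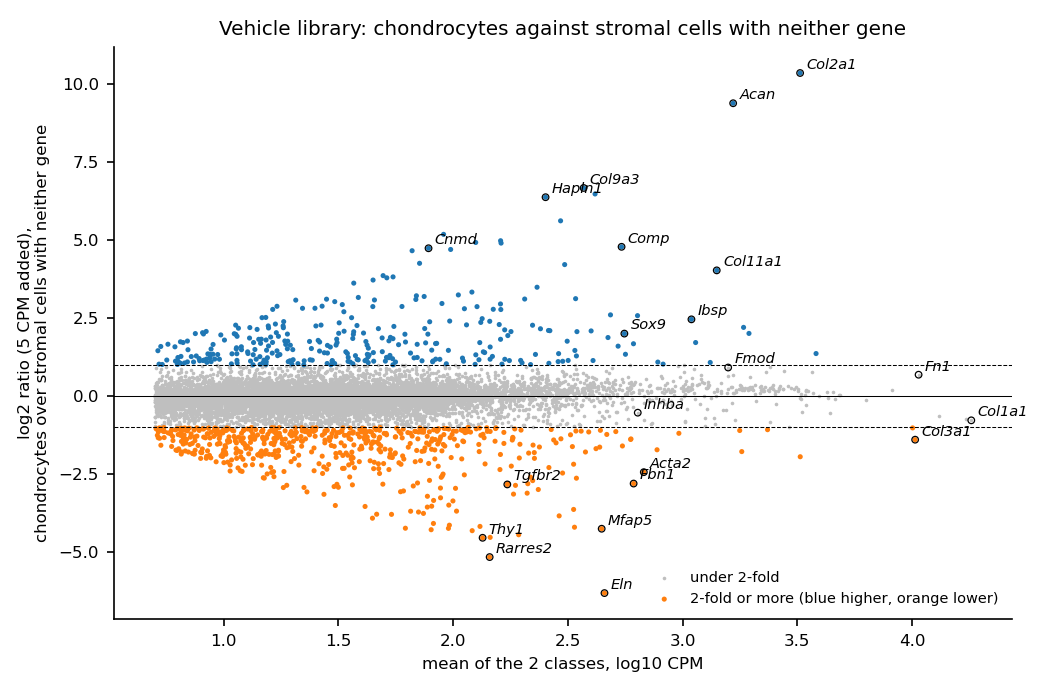
Log2 ratio of chondrocytes over Vehicle stromal cells with neither gene (y axis, 5 CPM added) against the mean CPM of the 2 classes (x axis, log10) for 10048 genes; blue points are 307 genes at least 2-fold higher, orange points 596 genes at least 2-fold lower, and circled genes are named. Acan and Col2a1, at the top, were chosen by the rule, while Col9a3 (6.67) and Col9a1 (6.47) lead the genes that were not, and Eln is the lowest gene.

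Cartilage collagens stood highest. Of the 9 compared genes of that list, 7 were at least 2-fold higher and 1 lower, with a median log2 ratio of 4.90 beside -0.04 for all genes. Over all genes, 3.06% were higher and 5.93% lower. Col2a1, at 0 in the comparison by the rule, is one of the 7, and without it 6 of 8 were higher, with a median of 4.46. The 3 chains of type IX collagen, which decorate the fibril surface, were all among the higher genes. Col9a3 was at 739 CPM in the chondrocytes (exact Poisson 95% interval 715 to 763) and at 2.32 CPM in the comparison (1.33 to 3.77), a log2 ratio of 6.67. Col9a1 was at 827 CPM (802 to 852) and 4.36 CPM (2.94 to 6.22), a log2 ratio of 6.47. Col9a2 was at 318 and 5.81 CPM, a log2 ratio of 4.90. Each of the 3 chains was thus nearly absent from the stromal cells without Acan and Col2a1. The chains of type XI collagen, which nucleate the fibril core, differed in their level in the comparison. Col11a2 was at 581 CPM in the chondrocytes and 6.97 CPM in the comparison (log2 ratio 5.61), whereas Col11a1 was at 158 CPM in the comparison and at 2660 CPM in the chondrocytes (4.03). Col27a1, a fibrillar collagen of cartilage, was at 426 and 95.3 CPM (2.10). Col12a1, a fibril-associated collagen of dense tissue, was under the 2-fold limit at 1703 and 1440 CPM, and its relative Col14a1 was lower in the chondrocytes (163 and 427 CPM, -1.37). Col10a1, which marks hypertrophic cartilage, had 5 UMIs in 3 of the 273 cells and none in the comparison.

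The matrix proteins followed the collagens. Of 30 listed genes, 20 passed the limit of 5 CPM, and of these 12 were at least 2-fold higher and 3 lower, with a median log2 ratio of 2.63. The shares over all genes compared were 3.06% higher and 5.93% lower. Acan, at 0 in the comparison by the rule, is one of the 12, and without it 11 of 19 were higher, with a median of 2.39. With no limit on low values, over the listed genes with any UMI, the median of the list was 0.96. Link proteins and small cartilage proteins led. Hapln1, which locks aggrecan onto hyaluronan, was at 505 CPM in the chondrocytes (485 to 525) and 1.16 CPM in the comparison (8 UMIs, 0.502 to 2.29), a log2 ratio of 6.37. The gene 3110079O15Rik, named Snorc in RefSeq and encoding a small proteoglycan of cartilage, had 917 UMIs in the chondrocytes (182 CPM) and 1 UMI in the comparison, a log2 ratio of 5.18. Without the added 5 CPM its ratio rests on that 1 UMI, at 10.29 with a counting interval of 7.81 to 15.59. Cnmd (chondromodulin, an inhibitor of vessel growth in cartilage) was at 155 and 1.02 CPM, a log2 ratio of 4.74. Of these, Hapln1 was found in 194 chondrocytes (71.1%) and Cnmd in 106 (38.8%), and 5 cells held 16.4% and 27.8% of their UMIs. Comp was at 1051 CPM (1023 to 1080) and 33.4 CPM (29.2 to 38.0), a log2 ratio of 4.78. The matrilins, which link collagen fibrils to proteoglycans, were at 140 and 2.61 CPM for Matn3 (4.25) and 431 and 33.8 CPM for Matn4 (3.49), whereas Matn2 was at 74.3 and 75.8 CPM. Susd5 was at 193 and 2.61 CPM (4.70), and Frzb, a secreted Wnt antagonist of articular and growth cartilage, at 317 and 5.23 CPM (4.98). Scrg1, Vit and Hapln3 were also higher, Hapln3 at 1.82 and at 0.95 with 20 CPM added. Ucma, Ncmap, Chad, Matn1 and Cytl1, other genes of the list, had 50, 38, 24, 21 and 11 UMIs in the chondrocytes and none in the comparison.

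Other genes of the matrix list were within 2-fold or lower. Fmod (fibromodulin) was at 2068 and 1093 CPM, under the 2-fold limit (0.92), and was detected in 272 of the 273 chondrocytes. Bgn (biglycan) was at 2757 and 3900 CPM (-0.50), Prelp at 158 and 211 CPM (-0.41) and Vcan, the large proteoglycan of loose and prechondrogenic tissue, at 517 and 596 CPM (-0.20). Lower in the chondrocytes were Cilp (5.15 and 186 CPM, -4.23), Nov (4.75 and 159 CPM, -4.08) and Ctgf (97.7 and 293 CPM, -1.54). Cilp is known from cartilage intermediate layer, and Nov and Ctgf are secreted proteins of 1 family. Of the 5 stromal genes in the rule, which made up 3.59% of chondrocyte UMIs and 6.18% of those of the comparison, Lum was higher (1751 and 529 CPM, 1.72) and Col3a1 lower (5689 and 14953 CPM, -1.39). Col1a1, Col1a2 and Dcn were within 2-fold. Col1a1, of type I collagen, was present in all 273 chondrocytes at a median of 200 UMIs, so the members held much RNA of that collagen too.

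The windows upstream of Acan, Col9a1, Hapln1 and Col11a2 are shown because these 4 had the largest log2 ratios among the genes with an entry in the promoter table. Each line gives the 250 bases before a RefSeq transcription start (GRCm38.p6), read 5′ to 3′ on the gene's strand, which is plus for all 4. The windows lie at chr7:79052976-79053225 (Acan), chr1:24177360-24177609 and chr1:24194953-24195202 (Col9a1, which has 2 starts), chr13:89540386-89540635 (Hapln1) and chr17:34038888-34039137 (Col11a2). The RefSeq starts of Acan (79053226) and Col11a2 (34039138) lie upstream of the GENCODE gene starts given above. Capitals mark GGGCGG or its complement CCGCCC, the GC box that binds SP1-type factors, and matches that overlap run together. Acan and Col11a2 hold it, while Hapln1 and both windows of Col9a1 do not.
Acan: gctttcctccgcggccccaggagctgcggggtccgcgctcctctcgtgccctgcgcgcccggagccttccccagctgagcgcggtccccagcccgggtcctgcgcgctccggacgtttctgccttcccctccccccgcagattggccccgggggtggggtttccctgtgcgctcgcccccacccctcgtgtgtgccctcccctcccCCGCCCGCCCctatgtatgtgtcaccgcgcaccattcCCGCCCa
Col9a1, upstream start: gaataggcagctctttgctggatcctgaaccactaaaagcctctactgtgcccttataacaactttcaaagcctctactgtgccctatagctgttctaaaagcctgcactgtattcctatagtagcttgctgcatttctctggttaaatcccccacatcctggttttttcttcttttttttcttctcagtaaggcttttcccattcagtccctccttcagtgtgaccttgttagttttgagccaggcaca
Col9a1, downstream start: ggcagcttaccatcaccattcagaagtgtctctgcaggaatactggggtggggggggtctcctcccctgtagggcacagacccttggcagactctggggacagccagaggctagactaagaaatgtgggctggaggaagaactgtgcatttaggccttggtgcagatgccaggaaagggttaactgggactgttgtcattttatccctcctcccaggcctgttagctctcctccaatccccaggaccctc
Hapln1: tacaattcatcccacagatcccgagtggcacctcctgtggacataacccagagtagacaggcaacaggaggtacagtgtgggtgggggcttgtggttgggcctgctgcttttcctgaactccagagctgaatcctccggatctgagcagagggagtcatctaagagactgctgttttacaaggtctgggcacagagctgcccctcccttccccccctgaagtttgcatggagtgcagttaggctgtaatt
Col11a2: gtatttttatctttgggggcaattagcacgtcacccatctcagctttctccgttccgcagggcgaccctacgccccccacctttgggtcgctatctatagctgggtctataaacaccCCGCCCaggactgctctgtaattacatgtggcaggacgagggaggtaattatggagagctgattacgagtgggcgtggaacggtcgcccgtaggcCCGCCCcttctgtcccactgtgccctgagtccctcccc
Among the 12 genes with the largest log2 ratio, 7 had an entry (Acan, Col9a1, Hapln1, Col11a2, Frzb, Col9a2 and Cnmd), with 8 windows. Of the 7 genes, 4 held a GC box (Acan, Col11a2, Frzb and Col9a2), and of 32851 windows of all genes 32.7% did. The first is a count of genes and the second a share of windows. The SOX motif AACAAT, searched on both strands, was in none of the 7, and in 9.42% of all windows. Of the 19 cartilage collagen and matrix genes past 2-fold higher, 13 had an entry, with 15 windows. A GC box was in 9 of these 13 genes and the SOX motif in 1. A window of this length says nothing of enhancers, and the motifs were chosen after the expression values had been seen.

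Of 28 chondrogenic factors, 19 passed the limit of 5 CPM, 8 were higher and 2 lower, with a median log2 ratio of 0.58 (0.35 with no limit on low values). Over all genes compared, 3.06% were higher and 5.93% lower, and the 2 lower factors are not far from the latter share. The SOX trio was higher as a whole. Sox9 was at 896 CPM in the chondrocytes (870 to 922) and 220 CPM in the comparison (209 to 231), a log2 ratio of 2.00. Sox5 was at 84.0 and 21.1 CPM (1.77), and Sox6 at 107 and 2.90 CPM (3.82). Sox9 was also present outside the rule, with at least 2 UMIs in 199 of the 440 comparison cells, where it was at 382 CPM, whereas Sox6 in those 199 cells was at 4.54 CPM. Wwp2, whose locus hosts a cartilage microRNA and whose protein is a SOX9 partner, was at 1094 and 179 CPM (2.58). Trps1, Mef2c and Foxc1, transcription factors of the growth plate and of early cartilage, had log2 ratios of 2.48, 2.07 and 1.98. Gdf5, a BMP-family ligand of joint cartilage, was at 18.4 and 1.02 CPM (1.96, and 0.87 with 20 CPM added). Runx2, the regulator of hypertrophy and bone, was at 66.8 and 86.3 CPM (-0.35), and Runx1 at 289 and 346 CPM (-0.26). Lower were Barx2 (1.58 and 25.1 CPM) and Sox11 (0.396 and 12.3 CPM, -1.68, and -0.67 with 20 CPM added), a factor of progenitor cells. Nkx3-2, Pax1, Barx1 and Foxa2 had no UMI in the chondrocytes.

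Genes of late cartilage gave a split picture. Of 19 listed, 12 passed the limit of 5 CPM, 5 were higher and none lower, with a median of 0.79. All genes compared gave 3.06% higher and 5.93% lower, and the lack of a lower gene among 12 is near the latter share. With no limit on low values, over the listed genes with any UMI, the median was -0.03. Panx3, a channel protein of prehypertrophic cartilage, was at 87.6 and 2.03 CPM (3.72). Fgfr3, the receptor that restrains growth plate proliferation, was at 129 and 9.44 CPM (3.21), and Pth1r, the receptor for parathyroid hormone-related protein, at 431 and 97.0 CPM (2.10). Ibsp, the bone sialoprotein of mineralising matrix, was at 1854 CPM (1816 to 1892) and 333 CPM (319 to 347), a log2 ratio of 2.46, and Alpl, the alkaline phosphatase of mineralisation, at 166 and 27.3 CPM (2.40). Ibsp was uneven among the members. It was found in 196 of the 273 cells, with a median of 9 and a highest value of 595 UMIs, and 5 cells held 19.1% of its UMIs. Alpl was uneven too, found in 156 cells (57.1%), with 24.9% of its UMIs in 5 cells. The ligands of the growth plate were at or near 0 at this depth. Ihh had 1 UMI and Pthlh 2 UMIs over all chondrocytes, and Gli1 and Gli2 had 1 each, while Ptch1, receptor and target of Hedgehog signalling, was at 22.2 and 12.8 CPM (0.61). Spp1, Vegfa and Mmp13, of terminal cartilage and bone, were at 366, 198 and 55.9 CPM in the chondrocytes and 458, 300 and 26.3 CPM in the comparison.

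Other osteoblast genes gave mixed values. Tnfrsf11b (osteoprotegerin) was higher at 162 and 16.4 CPM (2.97). Sp7, the osteoblast factor also used by maturing chondrocytes, was at 117 and 87.0 CPM (0.41), and Bglap (osteocalcin) had no UMI. Over the 6 osteoblast markers, 5 were detected and their summed level was 2204 CPM in the chondrocytes, most of it Ibsp, against 534 CPM in the comparison.

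Sulphate and glycosaminoglycan genes, which build the side chains of aggrecan, included 7 higher and 1 lower among 23 compared, with a median log2 ratio of 0.44. The shares over all genes compared were 3.06% higher and 5.93% lower, and the 1 lower gene is near the latter. Slc26a2, the sulphate transporter whose loss causes skeletal dysplasia, was at 837 and 134 CPM (2.60). Papss2, which makes the sulphate donor in cartilage, was at 246 and 42.7 CPM (2.40), and Ugp2, an enzyme of UDP-glucose synthesis, at 501 and 178 CPM (1.46). Ugdh, the next enzyme on that route, stayed under 2-fold at 264 and 174 CPM. The collagen-processing and secretory list had 1 higher gene (P3h2, a prolyl hydroxylase, 61.6 and 5.23 CPM) and 1 lower (Adamts2, a procollagen peptidase, 97.7 and 354 CPM) among 34, both named here after their values were seen. Neither count went past the shares over all genes. Its 5 most abundant genes, Serpinh1, Hsp90b1, P4hb, Plod2 and Ppib, had log2 ratios of 0.27, 0.62, 0.61, 0.95 and 0.48.

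Energy genes differed by less than 2-fold with few exceptions. Among all genes compared, 3.06% were at least 2-fold higher and 5.93% lower. All 18 glycolysis genes were compared, with a median log2 ratio of 0.57, and 1 was at least 2-fold higher (Aldoc, an aldolase, 43.0 and 9.44 CPM, named after its value was seen). Pkm was at 3161 and 1664 CPM (0.92), Ldha at 2928 and 1708 CPM (0.78) and Gapdh at 4609 and 2695 CPM (0.77). The 18 hypoxia-response genes had a median of 0.58 and 2 at or over 2-fold, Higd1a (1794 and 847 CPM, 1.08, and 0.80 against all other Vehicle stromal cells) and Car9 (102 and 44.0 CPM, 1.13, named after its value was seen). For 18 genes of the respiratory chain, the median was 0.13 and none reached 2-fold in either direction. Against the cells with Acan and no Col2a1, the glycolysis median was 0.11 and the hypoxia median lay at 0.00.

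Among signalling genes, the activin and TGF-beta list had 1 gene higher and 5 lower of 19 compared (median -0.80). The 1 higher gene is near the share over all genes compared, which was 3.06% higher, with 5.93% lower. Inhba, which encodes the subunit of activin A and is the gene of interest of the study, was at 521 CPM in the chondrocytes (502 to 542) and 755 CPM in the comparison (734 to 775), a log2 ratio of -0.53. It was found in 252 of the 273 chondrocytes (92.3%), and after thinning in 61.4% of them against 44.9% of the comparison and 1.90% of macrophages. More of the chondrocytes than of the comparison cells therefore had an Inhba UMI at equal depth, while its summed level was lower. In all stromal cells of the Palo and Matrigel-only libraries it was at 65.2 and 24.7 CPM. Tgfbi, an extracellular protein induced by TGF-beta, was the higher gene at 1064 and 497 CPM (1.09), but was under 2-fold against all other Vehicle stromal cells (0.72). Tgfbr2, the type II receptor, was at 38.8 and 306 CPM (-2.83), and Ltbp2, of the latent complex family, at 88.7 and 511 CPM (-2.46).

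BMP genes had 1 of 13 higher and 1 lower (median -0.08). Those counts are near the shares over all genes compared, 3.06% higher and 5.93% lower. Bambi, a decoy receptor that BMP signalling induces, was at 132 and 37.5 CPM (1.69). The target genes Id1, Id2 and Id3 were at 105, 183 and 669 CPM in the chondrocytes and 84.7, 121 and 627 CPM in the comparison, none past 2-fold. The retinoid list had 1 higher and 2 lower of 12 (median -0.38), too few to set it apart from the shares of 3.06% and 5.93%. Cyp26b1, which breaks down retinoic acid, was the higher gene at 154 and 68.1 CPM (1.12), but fell under 2-fold with at least 1 UMI of each rule gene in place of 2 (0.94) and against all other Vehicle stromal cells (0.95). Aldh1a3, which makes retinoic acid, was at 24.8 and 120 CPM (-2.06). Rarg, the receptor that palovarotene binds, was at 65.8 and 41.7 CPM (0.60, named for the drug after its value was seen). Of the FGF, IGF and Wnt regulators, 2 were higher and 6 lower of 16 (median -0.71), beside 3.06% and 5.93% over all genes. Among them, Igfbp3 was at 203 and 58.4 CPM (1.71), and its family members Igfbp4 and Igfbp6 were lower at -2.24 and -1.61.

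Eln (elastin), the gene with the lowest ratio, was at 6.54 CPM in the chondrocytes (4.50 to 9.18) and 907 CPM in the comparison (885 to 930), a log2 ratio of -6.30, and Mfap5, Fbn1 and Tnxb, other proteins of elastic microfibrils and their surroundings, had log2 ratios of -4.24, -2.80 and -4.28. Against the 5.93% lower and 3.06% higher over all genes compared, 17 of 19 fibroblast progenitor genes were at least 2-fold lower, Mfap5 and Fbn1 among them, and none higher (median -2.04). Pi16 and Cd34, surface markers of universal fibroblasts and their progenitors, were at 7.13 and 235 CPM and at 9.31 and 253 CPM. The exceptions were Prrx1, a limb mesenchyme factor, at 248 and 463 CPM (-0.89), and Ly6a, at 1205 and 977 CPM (0.30), and Ly6a was present in 81.4% of the chondrocytes after thinning. Rarres2 (chemerin, -5.15), Thy1 (-4.53), Prss23 (-4.44) and the noncoding Meg3 (-4.20) completed the lowest genes.

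Beside the same shares over all genes, 5.93% lower and 3.06% higher, fibroblast activation genes had 7 of 20 lower and none higher (median -0.72). Lrrc15, a marker of matrix-producing myofibroblasts, was at 7.53 and 283 CPM (-4.52) and Acta2, smooth muscle actin, at 208 and 1147 CPM (-2.43). In contrast, Postn, Tnc and Fn1, matrix glycoproteins of healing tissue, were within 2-fold at -0.09, -0.15 and 0.69. The tendon and joint list had 5 of 7 lower, among them Prg4 (lubricin, 25.6 and 131 CPM, -2.15) and Osr1 (-2.21), while Scx, the tendon factor, was at 30.1 and 22.9 CPM. Matrix proteases and inhibitors had 7 of 17 lower and none higher (median -0.74), with Timp3 at -1.40 (-0.996 against all other Vehicle stromal cells) and Mmp14 at -0.74. Chemokine and cytokine genes had 10 of 14 lower and 1 higher (median -2.40, and -1.38 with no limit on low values). Ccl2 and Ccl7, which draw monocytes, were at 10.7 and 196 CPM and at 19.6 and 185 CPM, Csf1, which sustains macrophages, at 12.7 and 164 CPM, and Cxcl14 at 1.78 and 122 CPM.

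**Figure D3:**
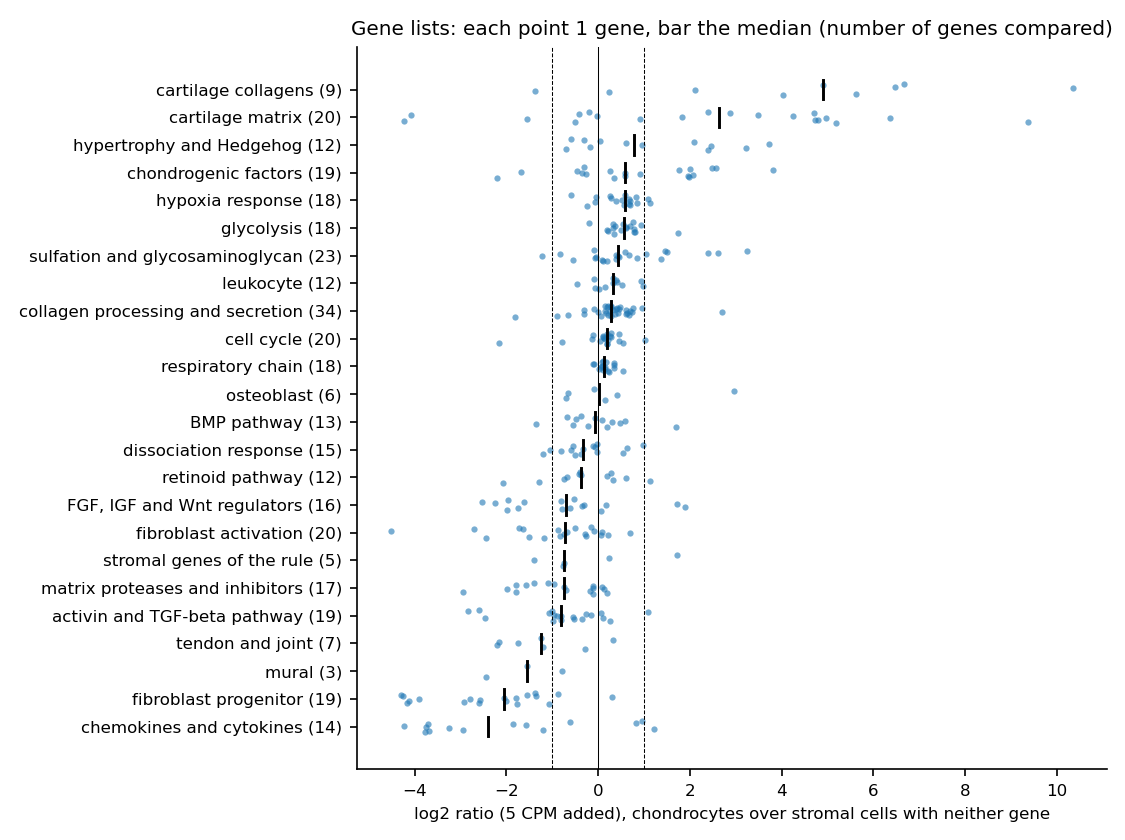
Log2 ratio (x axis, 5 CPM added) of chondrocytes over Vehicle stromal cells with neither gene for the genes of each list with at least 3 compared members; points are genes, bars the list median, and dashed lines 2-fold. Cartilage collagens (median 4.90, with Col2a1 included) and cartilage matrix (2.63, with Acan included) lie farthest right, and fibroblast progenitor genes (-2.04) and chemokines (-2.40) farthest left. With no limit on low values, the medians were 0.96 for cartilage matrix, -2.03 for fibroblast progenitor genes and -1.38 for chemokines.

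A further 265 Vehicle stromal cells had at least 2 UMIs of Acan and none of Col2a1, and gave a nearer comparison. Of 9888 genes compared with them, 136 were at least 2-fold higher in the chondrocytes (1.38%) and 128 lower (1.29%), with a median log2 ratio of -0.04. Leaving out Col2a1, at 0 in these cells by the rule, and Acan, 6 of 8 cartilage collagens and 11 of 20 matrix genes were higher, with medians of 1.96 and 1.30. All 6 of these collagens and 10 of the 11 matrix genes were also higher against the cells with neither gene. Hapln1 was at 16.1 CPM there (log2 ratio 4.59), 3110079O15Rik at 4.86 CPM (4.24), Col9a3 at 50.2 CPM (3.75) and Col9a1 at 114 CPM (2.81). Sox9 was at 525 CPM (0.77), Wwp2 at 620 CPM (0.81), Fmod at 2062 CPM and Alpl at 143 CPM (0.21), all within 2-fold of the chondrocytes. Several genes were thus near the chondrocyte level in cells that had Acan alone, while type IX collagen and Hapln1 were not. Of the fibroblast progenitor genes, 2 of 13 compared were lower (median -0.41), with Pi16 at 1.55 CPM and Cd34 at 10.6 CPM, beside 7.13 and 9.31 CPM in the chondrocytes. Lrrc15 (106 CPM, -3.15), Eln (55.9 CPM, -2.40) and Mfap5 (208 CPM, -2.24) remained above the chondrocyte level.

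**Figure D4:**
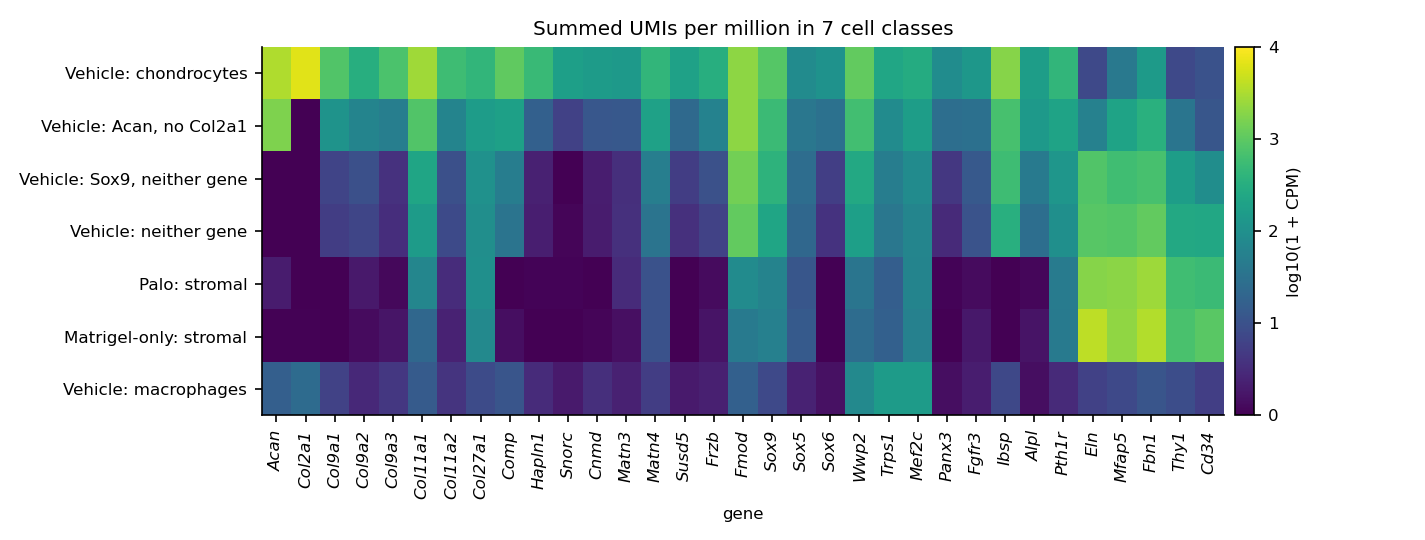
Level of 33 genes (x axis) in 7 cell classes (y axis) as log10(1 + CPM) by colour, from summed UMIs of each class. Type IX collagen genes, Hapln1 and Cnmd are brightest in the chondrocyte row, Fmod and Sox9 are bright in every Vehicle stromal row, and Eln, Mfap5 and Fbn1 are bright in the row of Vehicle cells with neither gene (907, 848 and 1074 CPM) and in the Palo and Matrigel-only rows.

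The stromal cells of the other libraries held little of the programme apart from Sox9. Summed over 980 Palo stromal cells, Acan was at 1.02 CPM, Col9a1, Comp, Sox6 and Ibsp had no UMI, and Sox9 was at 59.7 CPM. Over 1767 Matrigel-only stromal cells, Acan was at 0.0603 CPM (1 UMI), Comp at 0.422 CPM and Sox9 at 54.5 CPM. Cells with at least 2 UMIs of Sox9 and none of Acan or Col2a1 made up 17.3% of Palo and 11.7% of Matrigel-only stromal cells. In the Vehicle library they made up 16.5%, with Sox9 cells that also held Acan or Col2a1 not counted. In the Palo library 3 stromal cells had 2 or more UMIs of Acan without Col2a1, and in the Matrigel-only library none had. Each condition is 1 library, and treatment and library cannot be told apart.

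Among themselves the chondrocytes formed a range. Across the 273 cells, the UMIs of Col2a1 per 10000 correlated with those of Col11a1, Col9a1, Col11a2, Hapln1 and Col9a3 at Spearman coefficients of 0.70, 0.69, 0.69, 0.66 and 0.66, with Acan at 0.45, and with Sox9 and Inhba at 0.12 and 0.13. Postn, Col3a1 and Mki67 gave -0.40, -0.33 and -0.30. The cells share 1 library and these values share each cell's depth, so the coefficients are a description and have no p-value.

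The cells were ranked by the share of their UMIs from Acan and Col2a1 and divided into 3 groups of 91, with shares of 0.0238% to 0.466%, 0.471% to 1.17% and 1.17% to 4.42% and median depths of 19336, 17479 and 18022 UMIs. The cuts fell in a continuous range, with 18 and 22 cells within 10% of them. Of 9712 genes at 5 CPM or more, 162 were at least 2-fold higher (1.67%) and 318 at least 2-fold lower (3.27%) in the highest than in the lowest group, with a median log2 ratio of -0.07. The ranking used Acan and Col2a1, so their own increase along it is built in. Along it, Hapln1 was at 119, 291 and 1176 CPM, Col9a3 at 243, 565 and 1494 CPM, Col9a1 at 264, 716 and 1591 CPM, and Col11a2 at 194, 495 and 1118 CPM. Each of these genes was higher in the middle group than in the lowest and higher again in the highest. Matn3 was at 42.2, 113 and 282 CPM and 3110079O15Rik at 30.0, 168 and 370 CPM. Plagl1, an imprinted zinc-finger factor, went from 33.8 to 70.4 and 212 CPM. Leaving out Acan and Col2a1, 6 of 8 cartilage collagens and 12 of 20 matrix genes were at least 2-fold higher in the highest group. Sox9 was within 2-fold at 796, 900 and 1007 CPM, Inhba at 395, 607 and 575 CPM and Ibsp at 1345, 2046 and 2233 CPM.

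Cell cycle genes ran the other way. In the list of 20, 14 were at least 2-fold lower in the highest group and none higher, with a median of -1.53 beside -0.07 for all genes. Among all 9712 genes, 3.27% were lower and 1.67% higher. Top2a, which untangles replicated DNA, was at 188, 145 and 25.5 CPM, Mki67, the proliferation marker, at 143, 125 and 22.9 CPM, and Hmgb2, a chromatin protein of dividing cells, at 379, 365 and 116 CPM. All 3 genes were lowest in the highest group, and most of the difference lay between it and the middle group. Vcan went from 743 to 502 and 275 CPM, Sfrp2, a Wnt modulator of mesenchyme, from 191 to 91.9 and 47.8 CPM, Col14a1 from 245 to 138 and 94.3 CPM, Csrp2 from 1039 to 789 and 368 CPM, Ptn from 279 to 162 and 93.0 CPM and Smc4 from 144 to 115 and 56.1 CPM. Against the cells with neither gene, the list had 1 gene higher and 1 lower of 20 (median 0.18). These counts are near the shares over all genes in that comparison, 3.06% higher and 5.93% lower. The higher gene was Hmgb2, at 293 and 143 CPM (1.01), and it was under 2-fold against all other Vehicle stromal cells (0.61). Mitotic transcripts were also compared between the classes. Counting cells with at least 3 UMIs over 8 mitotic genes, 106 of 273 chondrocytes (38.8%), 37.0% of the cells with Acan and no Col2a1 and 24.3% of the comparison were positive. After thinning to 2800 UMIs, any UMI of the 8 genes was present in 34.6%, 37.1% and 26.9%, and in 14.2% of the macrophages of the same library, which hold cycling cells of their own.

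**Figure D5:**
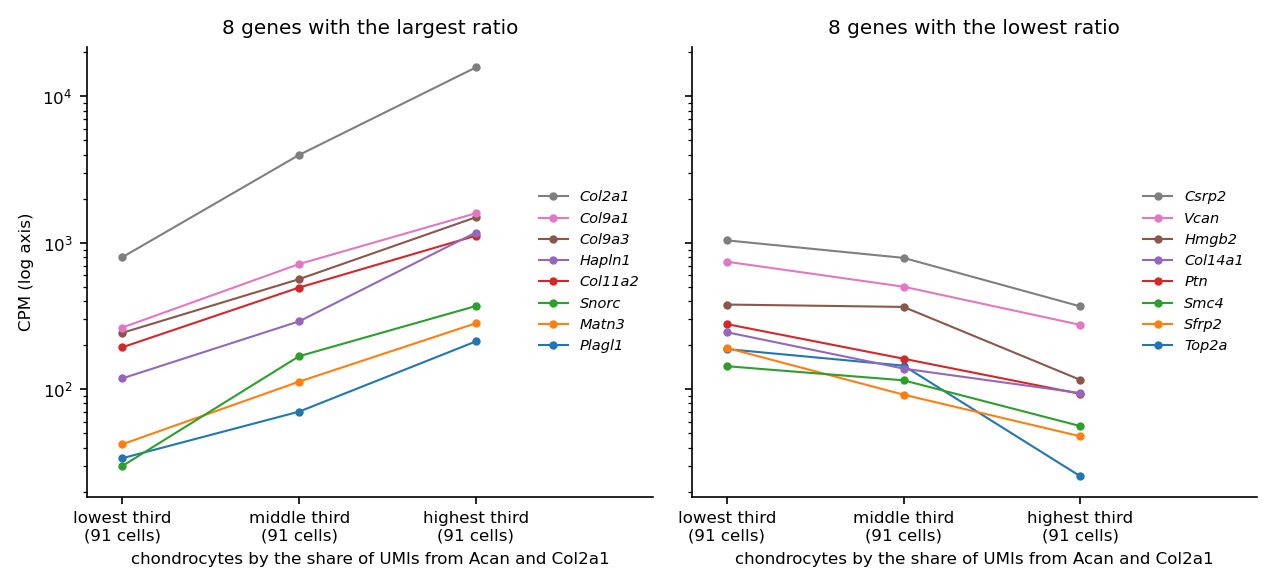
CPM (y axis, log scale) of the 8 genes with the largest (left) and the 8 with the lowest (right) ratio between the highest and the lowest 91 chondrocytes, among genes at 100 CPM or more in the chondrocytes. Cells were ranked by their share of UMIs from Acan and Col2a1 (x axis, 3 groups of 91 cells). Col2a1 was used for the ranking, while Top2a (188, 145 and 25.5 CPM) and Hmgb2 (379, 365 and 116 CPM) are lowest in the highest group.

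RNA of other cell types was low in the chondrocytes but not absent. All 7 macrophage markers were detected at a summed 176 CPM, against 114 CPM in the comparison and 18488 CPM in Vehicle macrophages, and Lyz2 made up 122 CPM of it. The 6 leukocyte markers summed to 73.9, 57.2 and 6928 CPM. Lyz2 was found in 93 chondrocytes (34.1%), and 5 cells held 81.4% of its UMIs, while Ptprc was found in 16 cells. In the 3 groups of the ranking Lyz2 was at 96.5, 26.2 and 255 CPM, lowest in the middle one. Endothelial markers summed to 8.12 CPM (4 of 5 detected, with Emcn at 0), T and NK cell markers to 5.35 CPM, and mural markers to 275 CPM, against 1352 CPM in the comparison, most of it Acta2. Tendon markers, led by Scx, were at 37.6 and 38.5 CPM and adipocyte markers, led by Lpl, at 52.5 and 133 CPM, with Adipoq at 0. When cells with a Ptprc UMI were left out of both classes, 257 chondrocytes remained, and 317 genes were at least 2-fold higher and 604 lower. The log2 ratio of Lyz2 was then 0.18 in place of 0.94, and the median of the leukocyte list -0.17 in place of 0.32. The part of other cell types in the remaining ratios was not tested.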

How the data were processed

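Cells of day 5 masses were loaded on the 10x Genomics system, 1 library per group, and the authors deposited filtered matrices of UMI counts per gene and barcode. The submitters' processing notes name Cell Ranger 3.0.2, Seurat 3 and the mm10 build. The deposited counts were used without any normalization beforehand. Library totals ran from 44252421 to 46901673 UMIs, and 1 UMI was worth 0.198 CPM in the summed chondrocytes and 0.145 CPM in the comparison cells.

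Here the matrices were filtered and classed with Python 3.11.15, numpy 2.4.6, scipy 1.17.1 and pandas 2.3.3, and figures drawn with matplotlib 3.10.9. UMIs were summed by class and scaled to CPM over all genes, with 35 repeated symbols kept apart by identifier. Genes averaging 5 CPM over the 2 classes were compared on a log2 scale after adding 5 CPM, and a 2-fold difference was counted. Intervals are exact (binomial, Poisson, or conditional binomial for a ratio) at 95%, a share of 0 is also given the limit of 3 counts, and both cover counting error only, since UMIs of 1 library are no biological replicates. Detection shares were thinned without replacement to 2800 UMIs per cell. edgeR 4.0.16 (R 4.3.3) gave TMM scaling factors as an alternative, and no count test was run because each condition is 1 library. The contrast was also run on simulated counts with known fold changes. These were drawn from the class sums with counting error only, so they do not bear on the spread between cells.

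The members, the 25 gene lists and the alternatives were chosen with earlier results of these data known. Named were the chondrocyte markers, the 12 genes with the largest and the 12 with the lowest log2 ratio among those at 50 CPM or more in either class, every gene of the 4 cartilage lists, and the 5 most abundant of every other list. Within the chondrocytes, the 8 largest and 8 lowest genes at 100 CPM or more were named. Some genes that fall under these rules are not reported here.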

Additional observations from a re-analysis of the deposited data

Results flagged for a closer look

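The Vehicle library held 362 barcodes with at least 2 UMIs each of Acan and Col2a1, of which 273 were chosen, whereas the Matrigel-only and Palo libraries held 0 among all their barcodes. The others drew attention because they carry cartilage RNA and the comparisons leave them out. More than 6000 genes were found in 29 of them, at a median of 42340 UMIs, with Col9a1 at 347 CPM, Mki67 at 184 CPM and C1qa at 92.6 CPM. Mitochondrial UMIs over 5% set aside 19, at a median of 6362 UMIs, with Col9a1 at 762 CPM and Mki67 at 208 CPM. A C1qa UMI set aside 37 that met the stromal limit, with Col9a1 at 700 CPM, C1qa at 246 CPM and Lyz2 at 712 CPM, beside 122 CPM of Lyz2 in the chondrocytes. A further 1 barcode had C1qa and less than 1% stromal UMIs, and 3 had no C1qa and less than 1% stromal UMIs. Their part in the ratios was not tested beyond the alternative limits.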

How the results depend on the processing

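Results were recomputed under 20 alternative settings, 3 of which were added after seeing the data (all other Vehicle stromal cells as the comparison, the 5% of stromal cells with the most UMIs left out, shared barcodes left out). The number of chondrocytes ran from 240 to 363, and stayed at 0 in the Matrigel-only and Palo libraries throughout. With at least 1 UMI of each gene in place of 2 the Vehicle share was 30.1%, and background RNA among the added cells was not tested. Genes higher numbered 165 with 20 CPM added and 196 with a limit of 20 CPM, and genes lower 254 and 345, since both settings drop or shrink low genes. Genes lower numbered 391 against all other stromal cells, a comparison that includes the cells with Acan alone. Of 80 named genes past 2-fold against the cells with neither gene, 69 stayed past it under every alternative. Cyp26b1, Egr1, Gdf5, Hapln3, Higd1a, Hmgb2, Hspb1, Sox11, Tgfbi, Timp2 and Timp3 did not. With no filter on low values the median of the cartilage matrix list was 0.96 and that of the hypertrophy and Hedgehog list -0.03, and that of the chemokine list went from -2.40 to -1.38, since genes at or near 0 then enter. Leaving out the stromal limit was applied to the chondrocytes alone and gives no share. No paired analysis was possible because each group is 1 library. The depth limits shares at 0 and genes under 5 CPM.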
